A study of Drosophila melanogaster with 10 samples.

Results

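The 6 actin genes of Drosophila melanogaster, Act5C, Act42A, Act57B, Act79B, Act87E and Act88F, were picked by symbol out of the 14292 genes to which the deposited transcript rows could be assigned. They were examined in midgut RNA from adult males. All 10 libraries came from flies hemizygous for Dredd D44, a mutation of the caspase that relays the IMD immune pathway. The control group carried mex-GAL4/+ (5 libraries, mex>+), and the other group carried mex-GAL4/UAS-PGRP-LE (5 libraries, mex>PGRP-LE). Absorptive enterocytes are the cells in which mex-GAL4 acts, so they were the ones made to overexpress PGRP-LE, which senses bacterial peptidoglycan. Other midgut cells were not targeted by the driver. Flies ate yeast alone, were kept at 25 °C with 12 h of light, and were dissected 7 days after eclosion. RNA came from 20 midguts, and the series calls the 5 libraries of each genotype biological replicates. The design asks how excess receptor alters midgut transcripts in a Dredd mutant background.

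Actin is the protein of thin filaments. In Drosophila each of these genes encodes a protein of nearly the same sequence, and the genes differ mainly in where they are transcribed. Act5C and Act42A are the cytoplasmic actins, found in most cells. In enterocytes, cytoplasmic filaments form the core of each microvillus of the brush border and the belt at the cell junctions. Act57B, Act87E, Act79B and Act88F are muscle actins. Act88F is the actin of the indirect flight muscles, and Act79B is known from adult tubular muscles such as those of the legs. A sheath of visceral muscle surrounds the midgut epithelium, so whole-midgut RNA holds transcripts of both tissues. In such bulk RNA, fewer cells of a type and less RNA per cell cannot be told apart.

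Levels are given as TPM, a transcript measure scaled by length and by the library's total, so that levels of different genes can be set side by side. TPM keeps no record of sequencing depth, and the depth of each library is therefore unknown. From 8565 to 8767 genes reached 1 TPM per library, and external spike-in RNAs held between 1.14% and 1.53% of TPM. PGRP-LE itself stood between 35.9 and 41.8 TPM in the mex>+ libraries and between 4257 and 5030.2 TPM in the mex>PGRP-LE libraries. No library therefore went against its label in that gene.

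Both cytoplasmic actins were higher with PGRP-LE and the abundant muscle actins stood at similar levels in both groups. Act42A had the largest ratio of the family, with a mean 5.94 times that of controls, and Act5C the largest gain in TPM. Act57B and Act87E, the abundant muscle actins here, overlapped between the groups. Act79B was rare and lower with PGRP-LE, and Act88F was close to 0 throughout. The 6 genes were chosen with earlier results of this same comparison known, so their differences are given as a description, without a test.

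Act5C (FBgn0000042, chromosome X, 5900861 to 5905399, plus strand, in BDGP6.54) encodes the main cytoplasmic actin. It stood at 2401, 2668, 2295, 2028 and 2009.7 TPM in mex>+ libraries 1 to 5. In mex>PGRP-LE libraries 1 to 5 it stood at 3785, 4205, 4293, 3939.6 and 4067 TPM. The groups did not overlap, and the lowest library with PGRP-LE was above the highest control. The means were 2280.2 ± 275 TPM and 4058 ± 203 TPM (SD, n = 5), a ratio of 1.78. On the log2(TPM + 1) scale, mex>PGRP-LE minus mex>+, the difference was 0.84 ± 0.08 (SE). Among all genes ordered by mean TPM, Act5C was number 71 in controls and number 31 with PGRP-LE.

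Act42A (FBgn0000043, chromosome arm 2R, 6013910 to 6015689, minus strand) encodes the second cytoplasmic actin. Its TPM in mex>+ libraries 1 to 5 was 119.7, 81.5, 108, 60.7 and 40.8. In mex>PGRP-LE libraries 1 to 5 it was 415, 448, 439.5, 652 and 489. The groups were again apart, and control libraries spread widely, with library 1 highest and library 5 lowest. The coefficient of variation was 39.7% in controls and 19.5% with PGRP-LE, against 12.0% and 5.01% for Act5C. Means were 82.2 ± 32.7 and 489 ± 95.1 TPM (SD, n = 5), a difference of 2.64 ± 0.29 on the log2(TPM + 1) scale (SE). Of the 8722 genes tested in the whole table, 0.825% had a difference of greater size than that of Act42A. The same share was 4.82% for Act79B, 10.6% for Act5C, 53.2% for Act87E and 86.6% for Act57B. These shares are descriptions of chosen genes and serve as no test.

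**Figure D1:**
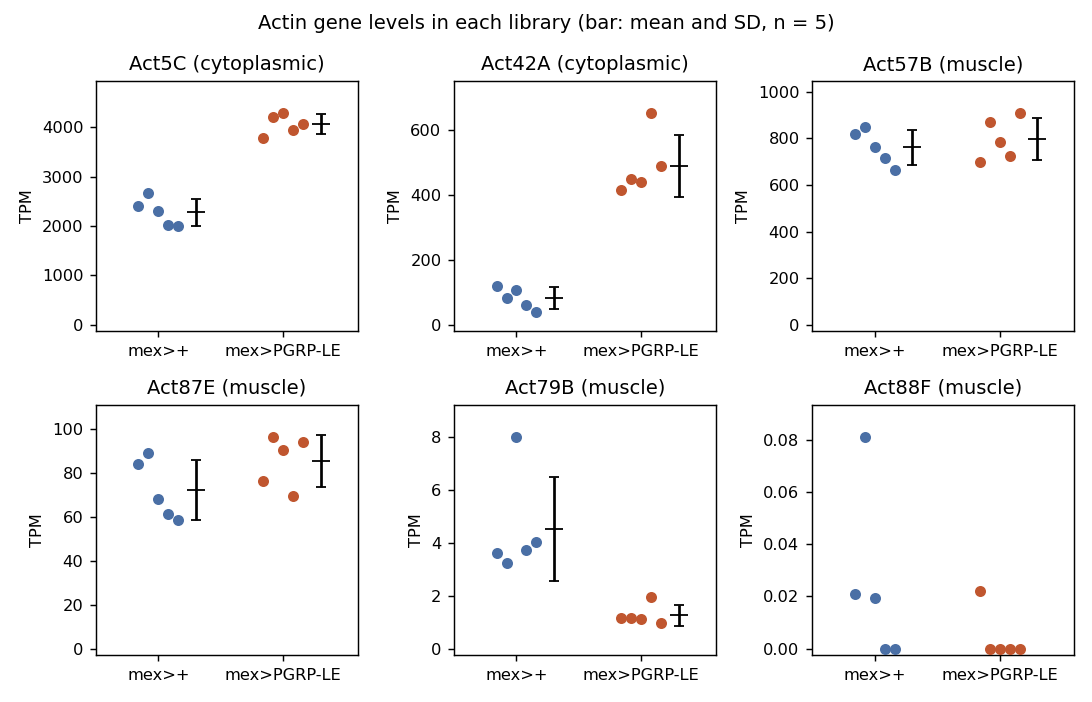
TPM (vertical axes, linear) of the 6 actin genes in each of the 5 mex>+ and 5 mex>PGRP-LE libraries, 1 point per library in the order of replicate numbers, with the mean and SD beside the points except for Act88F, which was listed at 0 in 6 libraries. Act5C and Act42A do not overlap between genotypes, Act57B and Act87E do, and the highest Act79B value in each genotype stands apart from the other 4.

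Act42A formed a larger part of the cytoplasmic pair with PGRP-LE. It made up 3.42% ± 1.17 of Act5C plus Act42A in controls and 10.7% ± 2.00 with PGRP-LE (SD, n = 5). The highest control reached 4.75% and the lowest mex>PGRP-LE library had 9.29%. Act5C remained the larger of the pair in every library, by 20.1 to 49.2 times in controls and by 6.04 to 9.77 times with PGRP-LE.

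Act57B (FBgn0000044, 2R, 20944021 to 20946431, plus strand) was the most abundant muscle actin. It stood at 819, 849.8, 763, 715 and 666 TPM in controls 1 to 5. With PGRP-LE it stood at 701, 871, 785, 723 and 909 TPM. The groups overlapped over most of their range. Means were 763 ± 74.8 and 798 ± 90.9 TPM (SD, n = 5), and the log2 difference of 0.06 ± 0.09 (SE) was smaller than its error. Its sign turned with the scaling, to -0.04 after median-of-ratios rescaling and -0.10 after quantile normalization.

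Act87E (FBgn0000046, 3R, 13425983 to 13428375, plus strand) encodes a second muscle actin and was far less abundant. Its TPM was 84.0, 89.1, 67.9, 61.2 and 58.6 in controls 1 to 5 and 76.5, 96.6, 90.2, 69.5 and 94.1 with PGRP-LE. The groups overlapped, with means of 72.2 ± 13.7 and 85.4 ± 11.8 TPM (SD, n = 5) and a log2 difference of 0.25 ± 0.13 (SE). Act57B exceeded Act87E by 9.54 to 11.7 times in controls and by 8.70 to 10.4 times with PGRP-LE. The annotation places the non-coding RNA lncRNA:CR45591 on the opposite strand at Act87E. No row of the table was assigned to that RNA, and how strand was handled in quantification is not stated in the labels.

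Act79B (FBgn0000045, 3L, 21985210 to 21987190, plus strand) stood at 3.61, 3.24, 8.002, 3.71 and 4.02 TPM in controls 1 to 5. With PGRP-LE it stood at 1.13, 1.14, 1.10, 1.93 and 0.962 TPM. The groups did not overlap, although the highest mex>PGRP-LE library and the lowest control differed by little more than 1 TPM. Means were 4.52 ± 1.97 and 1.25 ± 0.388 TPM (SD, n = 5), a log2(TPM + 1) difference of -1.25 ± 0.19 (SE). At this level the added 1 shrinks the difference, and the ratio of the means was 0.277. Without mex>+ library 3, the highest, the difference was -1.06.

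Act88F (FBgn0000047, 3R, 15439969 to 15442177, plus strand) was listed at 0 in 6 of 10 libraries. The highest of the other 4 values was 0.0812 TPM, in mex>+ library 2. It reached 1 TPM in no library and was the only family member below the level for testing, which was 1 TPM in at least 5 of the 10 libraries. Flight muscle markers were near 0 as well. fln, the flightin gene, lay at or below 0.0786 TPM in every library, and the 5 matched markers of that list summed to 0.403 to 1.12 TPM in controls and to 0.299 to 0.478 TPM with PGRP-LE. The control sum was highest in mex>+ library 3, the library with the most Act79B, where TpnC41C, a muscle troponin C, reached 0.720 TPM. The part of such tissue in the Act79B values was not tested. The coding sequences of the family are much alike, and how the quantification divided shared reads was not tested, so the levels of Act79B and Act88F are uncertain.

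Of the 5 actin genes at a level for testing, 3 had groups that did not overlap, 2 of them higher and 1 lower with PGRP-LE. Over the whole table the groups did not overlap for 48.3% of 8722 genes, with 31.3% higher and 17.0% lower under PGRP-LE. By limma, 62.9% passed an adjusted p of 0.05 in either direction. By mean level the order was the same in both groups, and what differed was the overlap of neighbours. Controls ran from Act5C to Act57B, then Act42A and Act87E, whose ranges overlapped, and then Act79B and Act88F. With PGRP-LE, Act42A lay between Act57B and Act87E without overlapping either, its highest library at 652 TPM and the lowest Act57B library at 701 TPM.

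The authors' deposited table, which came from a comparison whose title names RUVSeq, a correction for unwanted variation, lists 5 of the 6 genes. It gives log2 fold changes of 0.77 for Act5C, 2.52 for Act42A, 0.05 for Act57B, 0.21 for Act87E and -1.88 for Act79B. Act88F has no row in the authors' deposited table. These values follow the same order as the differences above, and the one for Act79B is larger in size than the value on the log2(TPM + 1) scale.

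All 6 genes together held 3202 ± 381 TPM in controls and 5431 ± 270 TPM with PGRP-LE (SD, n = 5), that is 0.320% and 0.543% of all TPM. Nearly all of that difference lay in the cytoplasmic pair, at 2362 ± 295 and 4547 ± 205 TPM. The 4 muscle actins summed to 839 ± 87.9 and 884 ± 101 TPM. The muscle share of actin TPM was therefore 26.3% ± 0.628 in controls and 16.3% ± 1.35 with PGRP-LE. That share varied little among controls, from 25.5% to 27.2%, while total actin TPM ran from 2779 to 3691. With PGRP-LE it ran from 14.7% to 18.1%, below every control.

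**Figure D2:**
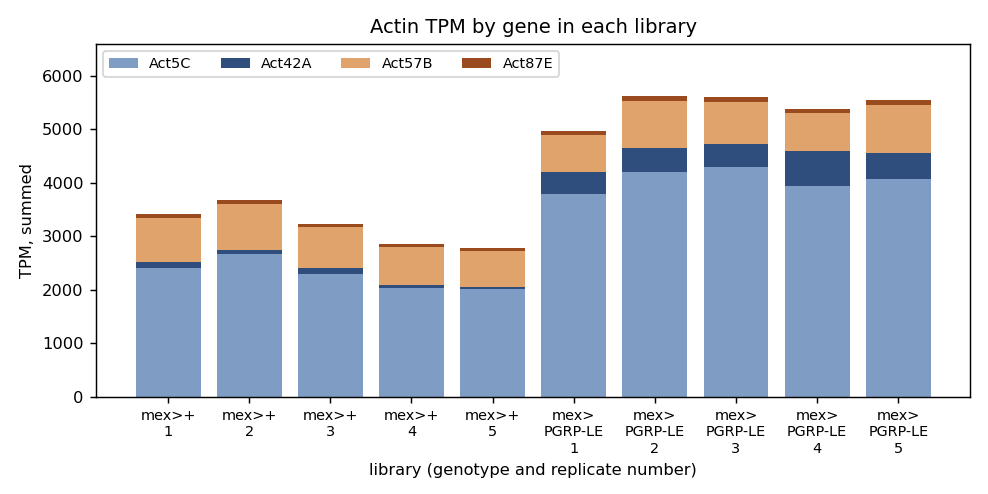
Summed TPM (vertical axis) of Act5C, Act42A, Act57B and Act87E in each library, stacked by gene, for mex>+ and mex>PGRP-LE replicates 1 to 5. Totals were higher in all mex>PGRP-LE libraries, through the segments of Act5C and Act42A, while the Act57B and Act87E segments kept a similar height.

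Act5C is transcribed from alternative first exons and ends at several sites, and the table holds 5 transcripts of it. Act5C-RD and Act5C-RA share the upstream first exon (X, 5900861 to 5901013) and end at 5904464 and 5904173. Act5C-RB starts at a downstream first exon (X, 5901982 to 5902096) and runs to 5905227, beyond the ends of RD and RA. Because the transcripts share most of their sequence, their separate levels are estimates.

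RD carried most of the signal, with 1655, 1694, 1656, 1389.6 and 1288 TPM in controls 1 to 5 and 2526, 2619, 2525, 2860.4 and 2857 TPM with PGRP-LE. RA had 629, 849, 526, 532 and 615 TPM in controls and 1136, 1457, 1639, 971 and 1102 TPM with PGRP-LE. Neither transcript overlapped between the groups, and the ratios of the means were 1.74 and 2.00. RB differed from both. It had 117, 124, 114, 106 and 107 TPM in controls and 123, 129, 128, 108 and 108 TPM with PGRP-LE, and these ranges overlapped, with a ratio of the means of 1.05.

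As a share of Act5C, RB lay outside the control range in every library with PGRP-LE, at 5.00% ± 0.264 in controls and 2.93% ± 0.240 with PGRP-LE (SD, n = 5). RD made up 67.4% ± 3.61 and 66.1% ± 5.64, and RA 27.6% ± 3.64 and 30.9% ± 5.51, both with overlapping ranges. The transcripts other than RB summed to 2167 ± 267 and 3939 ± 199 TPM, a ratio of 1.82. Act5C-RC was listed at 0 in all libraries and Act5C-RE did not exceed 0.110 TPM.

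**Figure D3:**
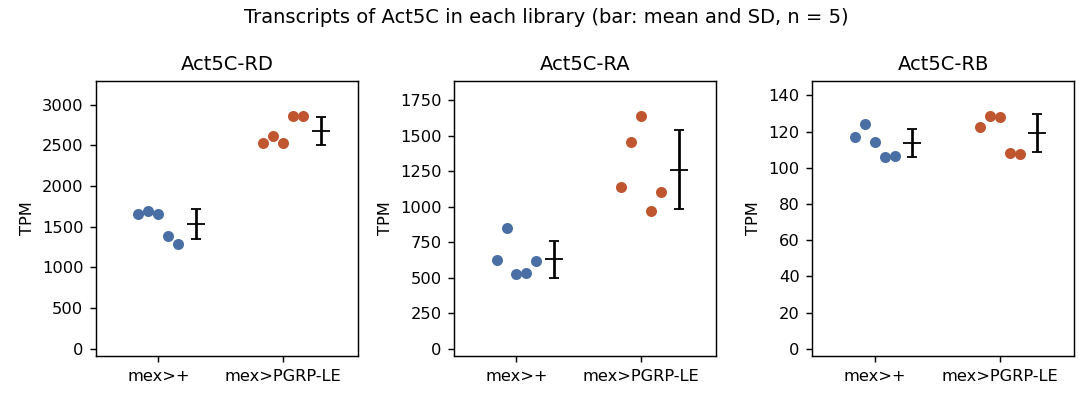
TPM (vertical axes) of the transcripts Act5C-RD, Act5C-RA and Act5C-RB in each library, with mean and SD (n = 5) beside the points. RD and RA, from the upstream first exon, do not overlap between mex>+ and mex>PGRP-LE, whereas RB lay between 106 and 129 TPM in all libraries. RB has the downstream first exon and also ends beyond RD and RA, so first exon and end cannot be told apart here.

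Of the other genes, Act87E showed little use of alternative transcripts. Act42A and Act57B have 1 transcript each. For Act87E, transcript RA held 99.1% ± 0.573 of the gene in controls and 99.3% ± 0.351 with PGRP-LE. For Act79B, RB held 84.7% ± 9.69 and 89.3% ± 18.3, at levels too low to compare its transcripts closely.

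Libraries of the same genotype also differed in actin, and the members did so partly together. After each group's mean was removed, log2(TPM + 1) of Act57B and Act87E had Pearson's r = 0.91 over the 10 libraries (Spearman's rho = 0.84), and r stayed between 0.88 and 0.94 when any single library was left out. Act5C followed Act87E with r = 0.88 (rho = 0.83) and Act57B with r = 0.77 (rho = 0.70). Act42A followed Act5C less closely, with r = 0.55 (rho = 0.59), and that value ran from 0.29 to 0.70 when single libraries were left out. Act79B had r = -0.44 with Act87E (rho = -0.59). These correlations are descriptions of 10 libraries that share 1 scaling to a fixed total.

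The 3 genes most like each actin in these deviations, ranked by Pearson's r over the same 10 libraries, differed between the members. They were picked as the highest r among all genes tested, a choice that favours high values. For Act57B they were Mlc1 (r = 0.99), Tm2 (r = 0.99) and Mlc2 (r = 0.98), which encode myosin light chains and tropomyosin of muscle. For Act87E they were CG45078 (r = 0.97), Prm, the paramyosin gene (r = 0.96), and Tsp42Ec, a tetraspanin gene (r = 0.96). Act5C was closest to CalpB, a calpain gene (r = 0.98), Frq1, a frequenin gene (r = 0.95), and Tdc1, a tyrosine decarboxylase gene (r = 0.95). Frq1 was rare, with means of 1.28 TPM in controls and 1.19 TPM with PGRP-LE. Tdc1 was also number 4 for Act87E (r = 0.96). Act42A was closest to mRpL39, of the mitochondrial ribosome (r = 0.95), Sox100B (r = 0.95) and cer (r = 0.94). CG40160 (r = 0.95), Vps11 (r = 0.92) and Svip (r = 0.90) were closest to Act79B, and r for CG40160 ran down to 0.83 when 1 library was left out. Sox100B, a transcription factor gene, is on the list of progenitor markers. The 9 tested genes of that list had r from -0.64 to 0.95 with Act42A (median 0.54).

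The muscle actins were then set beside sarcomere genes, those of the contractile unit of muscle. Within groups, the 21 sarcomere genes had a median r of 0.90 with Act57B (range 0.72 to 0.99) and of 0.87 with Act87E (range 0.55 to 0.96). With Act5C, a cytoplasmic actin, their median r was also high, at 0.71 (range 0.34 to 0.82). With Act42A it was 0.23 and with Act79B -0.34. Summed TPM of the sarcomere genes was 3593 to 4392 in controls and 3541 to 4311 with PGRP-LE, ranges that overlapped almost wholly. Relative to that sum, Act57B stood at 19.1% ± 0.317 in controls and 20.4% ± 0.616 with PGRP-LE (SD, n = 5), with the highest control at 19.3% and the lowest mex>PGRP-LE library at 19.5%. Act87E stood at 1.79% ± 0.191 and 2.18% ± 0.144 of it, with overlapping ranges.

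**Figure D4:**
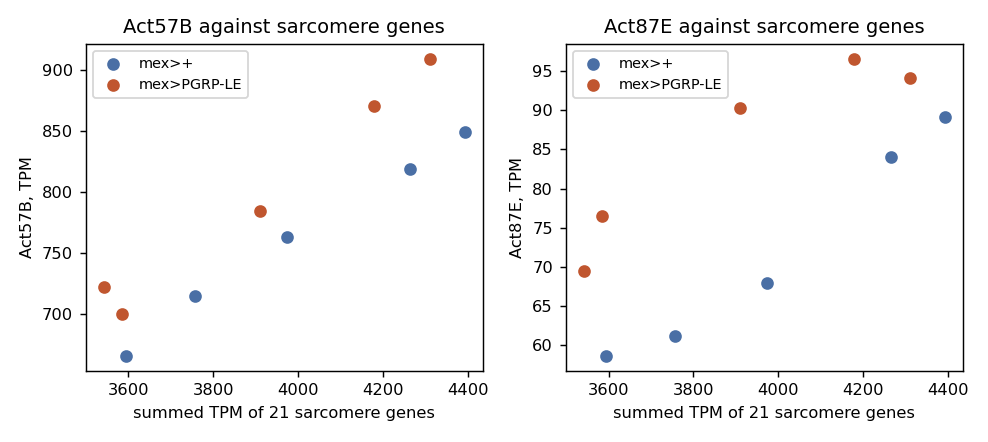
TPM of Act57B (left) and Act87E (right) against the summed TPM of 21 sarcomere genes, 1 point per library and coloured by genotype; the axes do not start at 0. Both actins are higher in libraries with more sarcomere RNA, and Act57B is a larger share of that sum in every mex>PGRP-LE library (19.5% or more) than in any control (19.3% or less).

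Sarcomere genes are not members, and they were tested over the whole table with limma (two-sided, Benjamini-Hochberg adjusted over 8722 genes, threshold 0.05). Of the 21, 8 fell, 1 rose and 12 did not pass, with a median log2 change of -0.05 against 0.09 over all genes tested. Across all genes tested, 22.8% were lower and 40.1% higher. Msp300, a giant nuclear and Z-line protein gene, fell from 18.8 ± 0.904 to 13.4 ± 1.47 TPM (limma adjusted p = 9.99e-05). tn, which encodes a ubiquitin ligase of muscle, fell from 26.2 ± 1.91 to 19.7 ± 1.92 TPM (limma adjusted p = 5.20e-04). Mlp84B, a muscle LIM protein gene, fell from 69.9 ± 6.03 to 52.9 ± 5.64 TPM (limma adjusted p = 0.00100). The 1 that rose was Zasp52, a Z-disc gene named after its values were seen. Of 9 tested genes on the visceral muscle marker list, 3 fell and 2 rose, and the summed level of that list was 94.0 to 128 TPM in controls and 135 to 181 TPM with PGRP-LE. The higher sum rested on the tubulin gene betaTub60D, which rose from 15.0 ± 6.63 to 69.2 ± 22.7 TPM. Without it, a sum taken after its value was seen, the other 10 markers held 93.4 ± 8.30 TPM in controls and 85.0 ± 4.15 TPM with PGRP-LE (SD, n = 5), with overlapping ranges. The muscle transcription factor gene Mef2, the RNA-binding protein gene how and the integrin gene if fell by 0.44, 0.40 and 0.40 on the log2 scale, with groups that did not overlap, and the integrin gene mew was the other that rose, by 0.43. The visceral muscle factors bin and HLH54F did not pass the test (log2 changes of -0.01 and 0.03).

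Genes whose products act on actin filaments were tested in the same fit, in lists by function. Of 101 tested, 58 rose, 16 fell and 27 did not pass (57.4% higher and 15.8% lower, against 40.1% and 22.8% over the whole table). Their median log2 change was 0.21, and that of all genes was 0.09. The split depended on scaling. Median-of-ratios rescaling, which moves the median of all genes to -0.003, gave 43 higher and 24 lower. Quantile normalization gave 53 and 24, and rescaling to spike-ins gave 44 and 12. Among all genes tested, 3499 were higher and 1991 lower, so that 63.7% of those called were higher. The whole table had 2753 and 2717 (50.3% higher) after median-of-ratios rescaling, 2986 and 2566 (53.8%) after quantile normalization, and 2582 and 1649 (61.0%) after rescaling to spike-ins.

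Filament nucleators of the branched kind rose as a whole. The Arp2/3 complex starts new branches on existing filaments, and all 8 of its subunit genes rose, also under every scaling tried, and their median log2 change was 0.53. Arpc3B rose from 78.8 ± 2.55 to 151 ± 9.72 TPM, or by 0.93 ± 0.05 in log2 units (SE; limma adjusted p = 3.16e-08). Arpc5 rose from 73.6 ± 4.33 to 119 ± 4.34 TPM (limma adjusted p = 2.96e-07) and Arpc1 from 100.4 ± 8.12 to 148 ± 4.15 TPM (limma adjusted p = 3.98e-06). Of 12 genes of the SCAR, WASp and WASH activators of Arp2/3, 8 rose and 0 fell, and 5 were higher after rescaling by median of ratios or to spike-ins. The SCAR complex genes Abi, HSPC300 and Cyfip rose by log2 values of 0.53, 0.56 and 0.22, and the call of Cyfip ended under rescaling to spike-ins (limma adjusted p = 0.0890).

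Genes for the actin monomer pool and for filament turnover held the gene with the largest change of the filament lists. Of 13, 11 rose and 1 fell, with 7 higher after median-of-ratios rescaling, and the median log2 change was 0.32. cib, a thymosin-type binder of actin monomers, rose from 129 ± 21.4 to 462 ± 33.9 TPM, or by 1.85 ± 0.11 in log2 units (SE; limma adjusted p = 6.64e-08). tsr, the cofilin gene, whose product severs and disassembles filaments, rose from 732 ± 55.6 to 1344 ± 71.6 TPM (limma adjusted p = 1.93e-07). cdi, a protein kinase gene, fell from 44.6 ± 2.79 to 24.5 ± 2.68 TPM (limma adjusted p = 1.38e-06). chic, the profilin gene, was named after its values were seen and rose from 501 ± 26.8 to 747 ± 37.9 TPM. Among 6 capping and severing genes, 4 rose and 1 fell, with 2 lower after median-of-ratios rescaling or quantile normalization. The capping protein subunits cpa and cpb rose by 0.88 ± 0.07 and 0.67 ± 0.05 on the log2 scale (SE), and Gel, the gelsolin gene, fell by 0.25.

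Nucleators of unbranched filaments and large crosslinkers went the other way or were mixed. Of 8 genes of formins, spir and ena, 2 rose and 3 fell, with 1 higher after rescaling to spike-ins. capu, a formin gene, fell from 51.5 ± 10.1 to 18.6 ± 1.71 TPM (-1.40 ± 0.11 in log2 units, SE; limma adjusted p = 7.61e-07), while spir and ena rose by 0.26 and 0.48. The call of spir ended under rescaling to spike-ins (limma adjusted p = 0.0608). Of 10 bundling and crosslinking genes, 5 fell and 2 rose, with 1 higher under each of the 3 other scalings. The filamin gene cher fell from 24.3 ± 3.42 to 14.1 ± 1.16 TPM and the spectraplakin gene shot from 45.0 ± 2.05 to 31.9 ± 2.36 TPM. Fim, whose product bundles the straight filaments of microvilli in vertebrate gut, rose from 129.97 ± 9.18 to 199 ± 8.08 TPM (limma adjusted p = 1.47e-06).

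Myosins outside the sarcomere were divided. Of 15 genes, 5 rose and 6 fell. The regulatory light chain gene sqh rose from 194 ± 13.7 to 311.5 ± 21.8 TPM and flw, a catalytic subunit of the phosphatase that acts on it, by 0.46 on the log2 scale. The Myosin VIIa gene ck fell from 8.20 ± 0.859 to 4.81 ± 0.196 TPM (limma adjusted p = 4.75e-06). The 5 rises were 3 without mex>+ library 1, 4 or 5, or without mex>PGRP-LE library 2, 3, 4 or 5. They were also 3 with the replicate block and after rescaling by median of ratios or to spike-ins.

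Of 9 genes that tie filaments to membranes and junctions, 7 rose and 0 fell, and 4 were higher after rescaling by median of ratios or to spike-ins. Among them shg, the E-cadherin gene, Vinc, the vinculin gene, and Moe, the moesin gene, rose by 0.52, 0.45 and 0.39 on the log2 scale. Of 6 other actin-related proteins 4 rose. Arp1 and Arp10, of the dynactin complex, rose by 0.50 and 0.54, and Bap55, of a chromatin complex, by 0.35. The transcription factor gene bs, the fly homologue of serum response factor that drives actin genes in mammals, and its partner Mrtf did not pass the test, at 0.16 ± 0.07 and 0.05 ± 0.07 on the log2 scale (SE; limma adjusted p = 0.0772 and 0.521). The change of Mrtf turned to -0.05 after median-of-ratios rescaling and to -0.01 after quantile normalization.

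**Figure D5:**
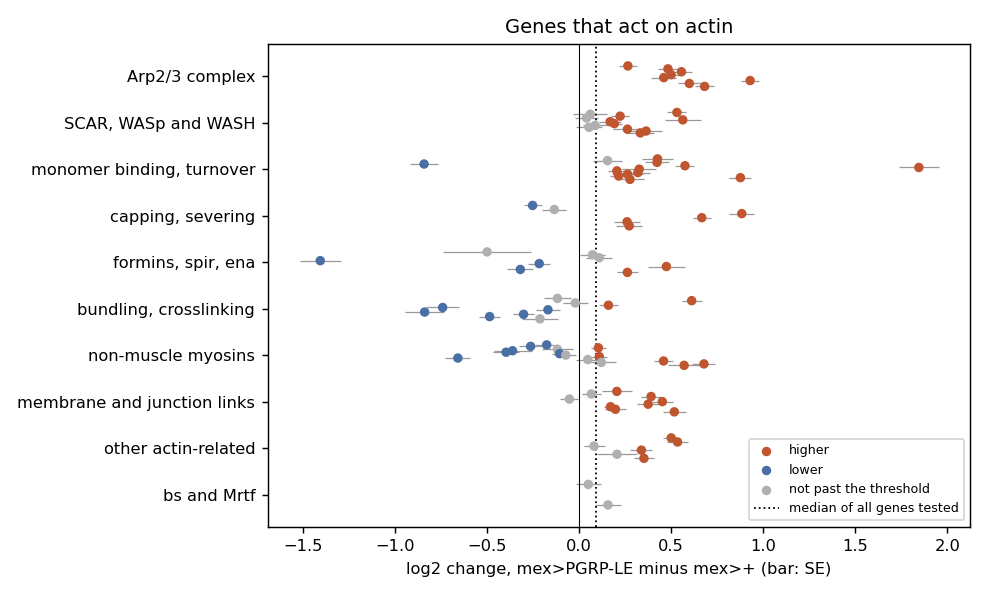
Log2 change (horizontal axis, mex>PGRP-LE minus mex>+, with SE) of tested genes that act on actin, 1 point per gene, with a row for each list described in the text. Points past the limma threshold are coloured by direction; the Arp2/3 row lies wholly above the median of all genes (dotted line, 0.09), and cib at 1.85 and capu at -1.40 are the extremes.

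Markers of progenitors and of enterocytes rose more often than they fell, beside the cytoplasmic actins, while most enteroendocrine markers did not pass the test. Of 9 tested progenitor markers, 8 rose and 0 fell, and the list summed to 48.4 to 52.5 TPM in controls and 107.6 to 136 TPM with PGRP-LE. Of its 10 matched genes none was at 0 in all libraries. Of 8 tested enterocyte markers, 5 rose and 1 fell, and that list summed to 1906 to 2538 TPM in controls and 2942 to 3349 TPM with PGRP-LE, with brv1 at 0. Most of the higher enterocyte sum lay in Ssk (mean 637 to 1140 TPM), Tsp2A (325 to 636 TPM) and mesh (261 to 452 TPM). The other rises were mex1 (512 to 655 TPM) and nub (46.7 to 56.6 TPM). Myo31DF was the 1 that fell, and GATAe and Alp4 did not pass, with lower means under PGRP-LE. Within groups, the progenitor markers had a median r of 0.54 with Act42A (range -0.64 to 0.95) and of 0.37 with Act5C (range -0.93 to 0.75) over the 10 libraries. The enterocyte markers had a median r of 0.43 with Act42A (range -0.28 to 0.66) and of 0.57 with Act5C (range -0.92 to 0.84). For the monomer and turnover genes the medians were 0.63 with Act42A and 0.67 with Act5C. The muscle actins had similar medians for those genes, 0.67 for Act57B and 0.58 for Act87E. With the enterocyte markers Act57B and Act87E had medians of 0.51 and 0.48, and with the progenitor markers 0.16 and 0.05. Of the markers of tissues other than gut epithelium, those of blood cells (haemocytes) were at or below 0.723 TPM for Hml, NimC1, He, eater and the prophenoloxidases, and gcm was at 0. In the same list crq and srp fell and Pxn rose. Hindgut markers had 4 of 4 lower. Trachea had 2 of 5 lower, fat body 1 of 3, Malpighian tubules 2 of 9 lower and 1 higher, and the proventriculus and salivary gland 2 of 3 lower. Over all genes tested, 22.8% were lower and 40.1% higher. The 9 tubule markers had a median log2 change of -1.10 (range -1.50 to 1.02). Several varied widely within groups, such as Uro at 31.1 ± 23.7 TPM in controls and 12.3 ± 9.04 TPM with PGRP-LE. Neurons had 2 of 4 higher and 1 lower. Enteroendocrine cells, which belong to the gut epithelium, had 2 of 10 higher, 1 lower and 7 that did not pass. Their median log2 change was 0.06. Markers of testis and accessory gland summed to at most 0.669 TPM. The part of any of these cell types in the actin differences was not tested.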

How the data were processed

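Total RNA of 20 midguts gave polyA libraries from a stranded TruSeq kit, per the labels. The expression table deposited by the authors holds TPM per transcript, with 31181 rows of which 92 are ERCC spike-ins. Per the submitters' processing notes, the tools were kallisto, edgeR, Trim Galore and FastQC, without versions, and the build was BDGP6. The strand setting is not given. A second table, also made by the authors, holds a log2 fold change per gene for 10682 genes and a p-value, whose adjustment the authors do not state and which was not used.

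Transcript IDs were looked up in Ensembl 115 (BDGP6.54), the source of all coordinates, where 31048 of 31089 matched, and TPM was summed per gene. The 8722 genes that reached 1 TPM in 5 or more of 10 libraries were compared as log2(TPM + 1) with limma 3.58.1 in R 4.3.3 (lmFit, eBayes with trend and robust; two-sided; Benjamini-Hochberg over all genes tested; threshold 0.05), a fit checked on simulated data. Members and lists were chosen with earlier results of these data known. The named list genes are the 3 of smallest adjusted p in each list of filament and muscle genes. Of 109 listed filament genes 105 matched and 101 were tested, and 1 of their lists is not reported here by itself. The 3 genes most like each actin were taken by Pearson's r. Zasp52, chic, TpnC41C and the marker genes were named outside that rule. No 2 libraries held identical values. Alternatives covered pseudocounts of 0.1 and 5, filters, 3 rescalings, limma settings, array weights, a replicate block and leaving out each library.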

Additional observations from a re-analysis of the deposited data

Results flagged for a closer look

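Act79B held 1 library far from the other 4 in each genotype. In mex>+ library 3 it reached 8.002 TPM, with a gap to the next library that was 0.837 of the group's range. In mex>PGRP-LE library 4 it reached 1.93 TPM, with a gap of 0.820 of the range. The critical value for 5 libraries is 0.71, and chance passes it in about 5% of groups, of which 32 were examined here. The cause was not tested.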

How the results depend on the processing

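Act5C and Act42A were higher with PGRP-LE, and Act79B lower, under every alternative run for each of them. The log2 difference ran from 0.73 to 0.90 for Act5C and from 2.41 to 2.80 for Act42A. That of Act87E ran from 0.14 to 0.33. For Act57B it was -0.10 after quantile normalization. Act79B, which had no value with a mean of at least 5 TPM, gave -1.73 with a pseudocount of 0.1 and -0.59 with a pseudocount of 5, as the added value weighs most on rare genes. Median-of-ratios rescaling gave 5 higher among the activators of Arp2/3, 7 in monomer binding and turnover, 1 in bundling, 3 in myosins and 4 in membrane links, and 2 lower in capping. Quantile normalization gave 2 lower in capping and 1 higher in bundling. Rescaling to spike-ins gave 5 higher among the activators, 1 among formins, 1 in bundling, 3 in myosins and 4 in membrane links. The cause was not tested. Mrtf reversed to -0.045 and -0.013 under the first 2 of these scalings. The summed level of visceral muscle markers turned to a difference of -8.38 TPM (mex>PGRP-LE minus mex>+) without betaTub60D, a setting chosen after seeing the data.

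The labels do not state whether replicate numbers pair the samples. Same-numbered libraries had r from -0.233 to 0.57 in their deviations. Libraries of different numbers were not compared, so these values cannot decide on a pairing. With the replicate block 3173 genes were higher and 1803 lower over the whole table, 54 and 13 among genes that act on actin, and myosins had 3 higher. When single libraries were left out, 3143 to 3555 genes were higher and 1825 to 2039 lower. Filament genes had 54 to 58 higher and 13 to 17 lower, myosins 3 to 5 higher, capping 1 to 2 lower (2 without mex>+ library 5) and sarcomere genes 1 to 2 higher. The second sarcomere rise appeared without mex>+ library 2. Without mex>PGRP-LE library 1, bs passed the test (limma adjusted p = 0.0435). Act5C-RB held 4.93% to 5.09% of Act5C in controls and 2.86% to 3.01% with PGRP-LE when single libraries were left out. Without depth, counting error cannot be given for the rare actins.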
